A study of Caenorhabditis elegans with 14 samples.

Results

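The nematode Caenorhabditis elegans has a pair of IκB genes, nfki-1 and ikb-1, and here gene expression in whole L4 larvae was set against that in whole L1 larvae within mutants of each. The tested animals were nfki-1(cer1)X of strain CER178 and ikb-1(nr2027)I of strain CER185, both collected at L4 after 36 h of growth at 25 °C, and their L1 counterparts carried other alleles, nfki-1(cer2)X in strain CER187 and ikb-1(cer9)I in strain CER244. Strain N2 (Bristol) served as wild type (WT) at both stages. The L1 larvae were fed for 5 h and then starved for 3 h at 25 °C, whereas the L4 larvae were not starved. Every allele is a deletion in 1 engineered or isolated line: cer1 and cer2 each lead to a premature stop codon, cer9 removes the start codon and nr2027 removes the sequence encoding the ankyrin repeats. The question was how far the L4 against L1 change of each gene in nfki-1 mutants resembled that in ikb-1 mutants. The comparison used 8 of the 14 sequenced libraries, 4 at L4 and 4 at L1, with the 4 WT libraries beside them, and all 42048 genes of the count tables, of which 21258 had enough reads to be tested.

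IκB proteins are best known in mammals, where their ankyrin repeats hold NF-κB transcription factors inactive until a kinase marks the IκB for destruction. C. elegans has no NF-κB, and there nfki-1 and ikb-1 have been linked to signalling by the cytokine interleukin-17 and to immunity. Between L1 and L4 a hermaphrodite larva passes its molts, its germline grows from a few precursor cells into a gonad that makes sperm before oocytes, and its skin switches to the collagens of the later cuticles. Because stage, allele, feeding, sequencing depth and library series all changed together between the L4 and the L1 libraries, none of these can be told apart from the others in any L4 against L1 value.

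The mutant libraries held 19735958 to 22373456 reads on genes at L4, against 58311928 to 63394016 at L1, and between 17857 and 18326 genes had a read at L4, against 25307 to 26780 at L1. WT libraries were alike in depth, with 21948017 to 21990865 reads at L4 and 57740500 to 60172554 at L1. The 2 files of each L4 strain differed from each other by less than the sampling noise once the difference shared by the other strains was taken away (0.643 of the counting variance in nfki-1 and 0.663 in ikb-1). They were therefore averaged and counted as 1 sample, so each L4 group has n = 1 and the spread behind every test comes from the L1 libraries. Before the shared difference was taken away, the L4 files differed by 4.45 times the counting variance in nfki-1 and 4.29 times in ikb-1 mutants. The 2 L1 libraries of a strain differed by 18.2 to 23.1 times the counting variance before that step and by 13.4 to 26.3 times after it. Nothing says whether the L1 libraries of a strain came from separate cultures. The design text of the series gives 1 replicate per strain at L1 where the sample labels give 2, so p-values measure the spread between these libraries, which may be technical. Levels are given as CPM, the counts of a gene relative to the library total after scaling by the trimmed mean of M values (TMM), for which WT at L4 had a factor of 0.732, against 0.965 to 1.14 for the other samples.

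The deleted genes themselves were read first. nfki-1 (chromosome X, 15355238 to 15363861, WBcel235) stood at 7.39 CPM in nfki-1 mutants at L4, against 94.3 and 72.8 CPM in their L1 libraries, and at 26.6 CPM in ikb-1 mutants at L4, against 170 and 140 CPM at L1. In WT it was at 42.7 CPM at L4 and at 150 and 141 CPM at L1, so at each stage the nfki-1 mutants were the lowest. The deletions remove only part of the gene, and reads outside them are still counted. In nfki-1 mutants the L4 and L1 libraries carry different deletions of nfki-1. The fall at L4 passed the test in nfki-1 mutants (log2 fold change −3.50 ± 0.32 SE, adjusted p = 0.00063 by edgeR's quasi-likelihood test with the Benjamini-Hochberg adjustment) and in ikb-1 mutants (−2.54 ± 0.30, adjusted p = 0.0014 by the same test). ikb-1 stood at 3.66 CPM in ikb-1 mutants at L4 and at 1.56 and 2.65 CPM at L1, against 6.26 CPM at L4 and 38.8 and 39.3 CPM at L1 in nfki-1 mutants, and 13.5 CPM at L4 with 50.3 and 46.4 CPM at L1 in WT. It was lowest in ikb-1 mutants at both stages, and it fell at L4 in nfki-1 mutants (−2.64 ± 0.38) but had a value of 0.80 ± 0.35 in ikb-1 mutants, where the L4 and L1 libraries carry different deletions of the gene itself.

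The other genes of the pathway mostly had lower values at L4, as did the median of all tested genes (−0.63 in nfki-1 and −0.67 in ikb-1 mutants). The list held 12 genes with nfki-1 and ikb-1 included, and 4 fell in nfki-1 mutants, 3 in ikb-1 mutants and 2 in WT, with none higher. These counts include nfki-1 itself in each mutant, and ikb-1 in nfki-1 mutants. A gene was called here if its adjusted p was under 0.01 and its log2 fold change reached 2 in size, which 9.56% of all tested genes passed as higher and 11.0% as lower in nfki-1 mutants, against 9.92% and 10.9% in ikb-1 mutants and 7.49% and 8.71% in WT. ilcr-1, a receptor subunit for interleukin-17, was at 9.10 CPM in nfki-1 mutants and 11.4 CPM in ikb-1 mutants at L4, against 71.1 and 79.0 CPM and 77.5 and 82.2 CPM at L1, and fell in both (−3.04 ± 0.27 and −2.81 ± 0.26). malt-1, the paracaspase of the pathway, passed in nfki-1 mutants (−2.02 ± 0.25) and stood at −1.70 ± 0.25 in ikb-1 mutants, where the size fell short of the threshold. ilcr-2, the other receptor subunit, was at 60.7 and 63.4 CPM at L4 in the 2 mutants and did not pass (0.41 ± 0.29 and 0.77 ± 0.29).

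Across all genes, 2032 were called higher and 2341 lower at L4 in nfki-1 mutants, and 2109 higher and 2324 lower in ikb-1 mutants. The counts rested on the L1 libraries: without nfki-1(cer2)_L1 replicate 1 they were 1265 and 1542 in nfki-1 mutants, without replicate 2 they were 1281 and 1493, and in ikb-1 mutants they were 1011 and 1320 without ikb-1(cer9)_L1 replicate 1 and 1150 and 1354 without replicate 2. In both mutants together 1868 genes were higher (8.79%) and 2034 lower (9.57%), and 0 went opposite ways. Of the genes higher in nfki-1 mutants 91.9% were higher in ikb-1 mutants, and of those higher in ikb-1 mutants 88.6% were higher in nfki-1 mutants. The shares for genes that fell were 86.9% and 87.5%. Of the genes higher in both, 1255 reached 10 CPM at L4, and of those lower in both, 1111 reached 10 CPM at L1. The median change over all tested genes was −0.63 in nfki-1 mutants, −0.67 in ikb-1 mutants and −0.66 in WT, and with genes at 0 in one stage set at the floor of 3 counts it was −0.25, −0.21 and −0.11. Among genes with at least 10 counts in every library the median was −0.06 in nfki-1 mutants and −0.05 in ikb-1 mutants.

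**Figure D1:**
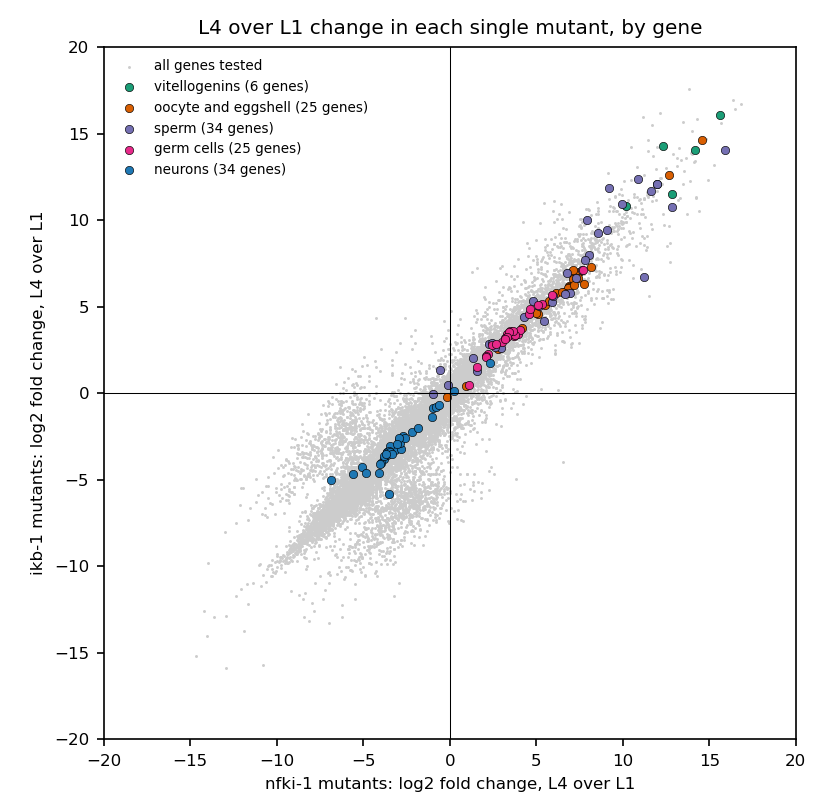
Each point is 1 of 21258 genes, placed by its log2 fold change (L4 over L1) in nfki-1 mutants and in ikb-1 mutants, with members of 5 lists coloured and all other genes in grey. Most points lie along the line of equal change, 2 looser clouds lie to its sides below 0, and no gene was called in opposite directions.

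The changes of the mutants were close to each other. Over 21258 genes Pearson's r between the nfki-1 change and the ikb-1 change was 0.927 and Spearman's rho 0.942, and 93.3% of genes had the same sign. No library entered both changes, but L1 libraries with the same number deviated together, and so did L4 files. Genes are not independent replicates and the values are a description. On the log2(CPM + 1) scale, with L1 library numbers crossed so that no L1 libraries of like number were set together, r was 0.9503 and 0.958. The L4 samples were means of both files and were not crossed. The difference of the changes had a median size of 0.36 on the log2 scale, and in 79.1% of genes it was 1 or less.

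Tested directly, the difference of the changes passed an adjusted p below 0.05 in 0 genes by edgeR (0.0%). At an unadjusted p below 0.05 by the same test, 131 genes had a more positive and 118 a more negative change in nfki-1 mutants. DESeq2 called 1 gene as more positive and 2 as more negative. Each L4 group had n = 1 and the spread came from the L1 pairs, so 0 calls do not show that the changes were equal. The genes of smallest p were old-1, ikb-1 and C45B2.2, and in each the mutants parted at L1. old-1, which encodes a receptor tyrosine kinase, was at 0.128 CPM in nfki-1 mutants and 0.353 CPM in ikb-1 mutants at L4, against 2.51 and 2.79 CPM in nfki-1 and 0.122 and 0.0667 CPM in ikb-1 mutants at L1, where WT had 3.29 and 3.196 CPM. C45B2.2 was at 38.9 CPM in nfki-1 and 29.5 CPM in ikb-1 mutants at L4, against 12.1 and 10.4 CPM in nfki-1 and 63.7 and 58.3 CPM in ikb-1 mutants at L1. A further 405 genes were called higher in 1 mutant alone. As 0 of all tested genes passed the test of the difference, that test says nothing further about these.

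In the mutants the yolk genes had the largest median change of all lists. Vitellogenins are yolk proteins made by the intestine of adult hermaphrodites for their oocytes, and all 6 (vit-1 to vit-6) rose in nfki-1 mutants, in ikb-1 mutants and in WT. Together they took 2.40% of gene reads in nfki-1 mutants and 2.84% in ikb-1 mutants at L4, and 0.0966% in WT. vit-6 was at 17288 CPM in nfki-1 mutants at L4, against 1.10 and 0.735 CPM at L1, and at 21357 CPM in ikb-1 mutants at L4, against 2.01 and 0.450 CPM at L1. In WT it was at 986 CPM at L4 and at 2.69 and 0.494 CPM at L1. The log2 fold changes were 14.19 ± 1.45 in nfki-1 mutants, 14.07 ± 1.45 in ikb-1 mutants and 9.26 ± 1.24 in WT.

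vit-2 (chromosome X, 5101032 to 5106169, WBcel235) was at 4732 CPM in nfki-1 mutants and 5551 CPM in ikb-1 mutants at L4, against 0.181 and 0 CPM and 0.107 and 0.05 CPM at L1, with fold changes of 15.60 ± 1.35 and 16.05 ± 1.37 on the log2 scale. vit-4 had no read in the L1 libraries of nfki-1 mutants and was at least 795-fold higher at L4, taking 3 counts over those libraries as the floor. The list's median was 12.59 in nfki-1 mutants, 13.09 in ikb-1 mutants and 7.98 in WT, and leaving out any 1 L1 library left 6 of 6 higher in both mutants. Several vitellogenin genes are near-identical copies, so their reads could be split between them. In whole animals, fewer cells of a type and less RNA per cell cannot be told apart, here or below.

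Oocyte and eggshell genes rose almost as a block in both mutants. The list has 25 genes, all of them tested, for RNA-binding proteins of the oocyte, the yolk receptor and eggshell parts, and 23 were higher in nfki-1 mutants and 23 in ikb-1 mutants, the same 23, with medians of 6.84 and 6.08. In WT 2 were higher and the median was 1.16. puf-5, a translational repressor of the oocyte, was at 465 CPM in nfki-1 mutants at L4, against 2.60 and 2.89 CPM at L1, and at 424 CPM in ikb-1 mutants at L4, against 3.63 and 4.74 CPM at L1. It was at 10.3 CPM in WT at L4 and at 4.11 and 5.10 CPM at L1, so both mutant L4 samples lay far above every other sample. The log2 fold changes were 7.40 ± 0.30, 6.66 ± 0.30 and 1.16 ± 0.27.

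cpg-2, a chondroitin proteoglycan of the eggshell, was at 1569 CPM in nfki-1 and 1267 CPM in ikb-1 mutants at L4, against 4.76 and 6.08 CPM and 5.95 and 10.3 CPM at L1. rme-2, the yolk receptor, was at 621 CPM and 599 CPM at L4, against 8.37 and 8.89 CPM and 10.4 and 11.3 CPM at L1, and its log2 fold changes were 6.17 ± 0.23 in nfki-1, 5.78 ± 0.23 in ikb-1 and 0.72 ± 0.22 in WT. perm-4, for a protein of the permeability barrier of the egg, was at 630 and 680 CPM at L4 with 3 reads in each pair of L1 libraries, a ratio of 14.71 on the log2 scale in nfki-1 mutants (95% counting interval 13.16 to 16.99). skn-1, a transcription factor that the intestine also uses, did not pass (−0.13 ± 0.30 and −0.23 ± 0.30). Without any 1 L1 library 23 of the 25 were called in each mutant.

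Many sperm genes rose in the mutants and in WT. Of 37 listed genes 34 were tested, and 27 were higher in nfki-1, 27 in ikb-1 and 19 in WT, with medians of 6.72, 5.75 and 4.68. Those medians lean on genes with few or 0 reads at L1. Among sperm genes with at least 10 counts in every library they were 2.33 in nfki-1 and 2.75 in ikb-1 mutants. gsp-4, a protein phosphatase of the sperm, was at 21.5 CPM in both mutants at L4, against 0.136 and 0.131 CPM in nfki-1 and 0.214 and 0.217 CPM in ikb-1 mutants at L1 (7.31 ± 0.33 and 6.63 ± 0.32). WT had 5.41 CPM at L4 and 0.222 and 0.212 CPM at L1 (4.62 ± 0.31). ssq-2, of a sperm-specific family, was at 160 CPM in nfki-1 and 180 CPM in ikb-1 mutants at L4, with no read in the L1 libraries of nfki-1 mutants, and was at least 6792-fold higher there.

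spe-9, which acts in fertilization, was at 2.41 CPM in nfki-1 and 2.60 CPM in ikb-1 mutants at L4, against 7.11 and 2.39 CPM and 2.76 and 2.62 CPM at L1, and did not pass. The count of sperm genes moved with single libraries: it was 18 in nfki-1 mutants without nfki-1(cer2)_L1 replicate 2 and 19 without replicate 1, and in ikb-1 mutants 9 without ikb-1(cer9)_L1 replicate 1 and 10 without replicate 2. The major sperm proteins, which drive the crawling of the sperm and come from a family of near-identical genes, had few reads. Only 10 of 31 were tested, of which 4 rose in nfki-1 and 5 in ikb-1 mutants, and msp-40 was at 3.78 and 3.61 CPM at L4 against 0 in all 4 L1 libraries. In each mutant 0 of the family were called without either of its own L1 libraries, and without 1 of the other mutant's 2 were in nfki-1 and 3 in ikb-1 mutants.

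Genes of the germ cells outside the gametes also rose. The germ cell list holds 25 genes of stem cell control, meiotic pairing and recombination, and 23 were higher in each mutant, against 4 in WT, with medians of 3.40, 3.36 and 0.46. The WT median turned to −0.08 with library totals in place of TMM. glp-1, the Notch receptor that keeps germline stem cells dividing, was at 201 CPM in nfki-1 mutants at L4, against 13.6 and 12.8 CPM at L1, and at 155 CPM in ikb-1 mutants at L4, against 12.8 and 16.47 CPM at L1. In WT it was at 13.7 CPM at L4 and at 12.5 and 15.9 CPM at L1, within the range of all L1 libraries. The log2 fold changes were 3.92 ± 0.27, 3.40 ± 0.26 and −0.05 ± 0.27.

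gld-1, which represses translation as germ cells enter meiosis, was at 592 CPM in nfki-1 and 539 CPM in ikb-1 mutants at L4, against 3.64 and 2.14 CPM and 3.59 and 4.18 CPM at L1 (7.68 ± 0.41 and 7.11 ± 0.40), and it rose less in WT (3.09 ± 0.36). him-3 and htp-3, of the chromosome axis, rose by 5.32 and 4.06 in nfki-1 mutants and by 5.14 and 3.62 in ikb-1 mutants on the log2 scale. gld-2, a poly(A) polymerase, was at 186 and 159 CPM at L4, against 69.3 and 99.8 CPM in nfki-1 and 129 and 106 CPM in ikb-1 mutants at L1, and did not pass. In ikb-1 mutants 17 of the list were called without ikb-1(cer9)_L1 replicate 1 and 18 without replicate 2.

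P granules are the RNA-rich bodies of the germline, and all 13 tested genes of that list rose in both mutants, against 2 in WT, with medians of 4.80, 4.82 and 0.94. pgl-1, a scaffold of the granules, was at 542 CPM in nfki-1 and 510 CPM in ikb-1 mutants at L4, against 21.1 and 17.8 CPM and 16.27 and 16.22 CPM at L1 (4.80 ± 0.27 and 4.97 ± 0.27). meg-1, another granule protein, was at 72.7 and 68.7 CPM at L4, against 0.242 and 0.327 CPM in nfki-1 and 1.27 and 1.22 CPM in ikb-1 mutants at L1. Of 18 tested Argonaute and small RNA genes, 8 rose in nfki-1 and 8 in ikb-1 mutants, and in WT 4 rose and 2 fell. Among them wago-1, a germline Argonaute, rose in the mutants (4.97 ± 0.23 and 4.95 ± 0.23), and alg-1, the Argonaute of the microRNA pathway, did not pass (−0.12 ± 0.56 and −0.41 ± 0.56). Without ikb-1(cer9)_L1 replicate 1 the ikb-1 count was 10 of 13 P granule genes, and without replicate 2 it was 9.

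Division genes moved the same way with smaller changes. Of 28 DNA replication genes 15 rose in nfki-1, 13 in ikb-1 and 1 in WT, and of 23 cell cycle genes 15, 13 and 2 rose, with none lower in any strain. cyb-3, a B-type cyclin, was at 365 CPM in nfki-1 and 338 CPM in ikb-1 mutants at L4, against 7.21 and 14.7 CPM and 10.9 and 20.04 CPM at L1 (5.06 ± 0.67 and 4.45 ± 0.65). orc-1, of the origin recognition complex, rose by 3.70 and 3.43, and cyd-1, the D-type cyclin of the first cell cycle phase, was at 4.06 and 3.23 CPM at L4, against 6.87 and 9.81 CPM in nfki-1 and 13.1 and 7.42 CPM in ikb-1 mutants at L1, and did not pass. The replication count was 8 without nfki-1(cer2)_L1 replicate 1 in nfki-1 mutants, and in ikb-1 mutants 4 without ikb-1(cer9)_L1 replicate 1 and 6 without replicate 2. The cell cycle count was 9 without nfki-1(cer2)_L1 replicate 1, and in ikb-1 mutants 8 and 7 without ikb-1(cer9)_L1 replicates 1 and 2.

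**Figure D2:**
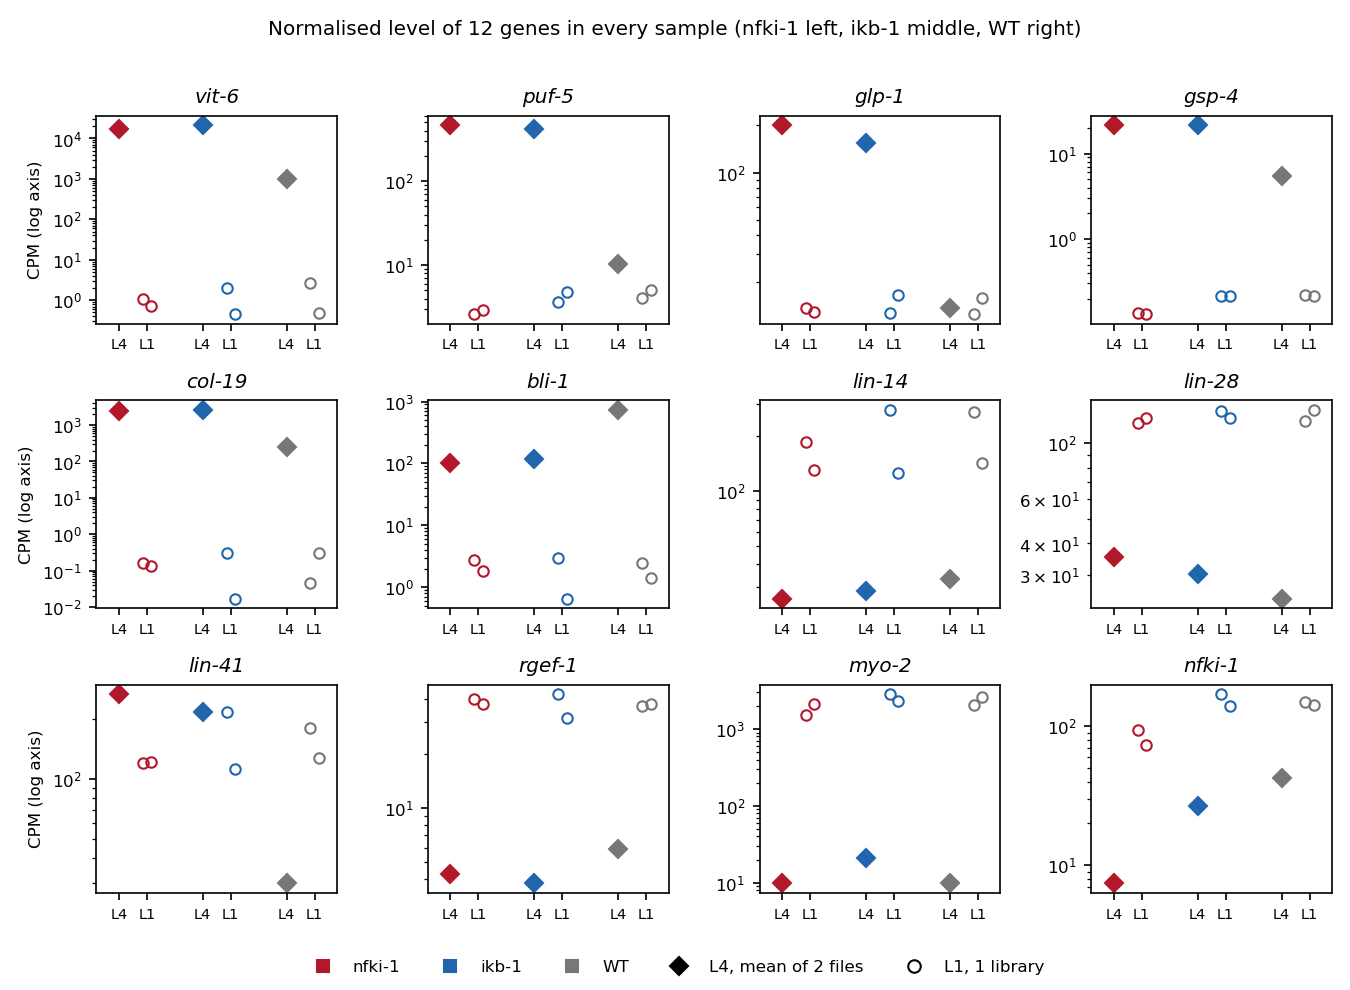
TMM-scaled CPM (log axis) of 12 genes at L4 (filled diamonds, the mean of 2 files) and L1 (open circles, 1 per library) in nfki-1 mutants, ikb-1 mutants and WT. The mutant L4 values of vit-6, puf-5 and glp-1 lie above all L1 values, with puf-5 at 465 and 424 CPM in the mutants and 10.3 CPM in WT, while myo-2 and rgef-1 are lower at L4 in every strain.

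Genes of the cuticle, the collagen coat of the worm, rose in all strains. All 7 tested adult cuticle genes rose in nfki-1 mutants, ikb-1 mutants and WT, with medians of 9.42, 10.15 and 10.68. col-19, a marker of the adult cuticle, was at 2477 CPM in nfki-1 mutants at L4, against 0.166 and 0.131 CPM at L1, and at 2638 CPM in ikb-1 mutants at L4, against 0.305 and 0.0167 CPM at L1. In WT it was at 246 CPM at L4, below both mutants, and at 0.0443 and 0.300 CPM at L1. bli-1, a collagen of the struts of the adult cuticle, stood the other way round, with 103 CPM in nfki-1 and 119.1 CPM in ikb-1 mutants at L4, against 2.78 and 1.81 CPM and 3.01 and 0.650 CPM at L1, and with 736 CPM in WT at L4, against 2.42 and 1.41 CPM at L1.

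Collagens of the furrows and of body shape gave 11 higher and 1 lower of 17 in each mutant, and 15 higher in WT, with medians of 4.26, 5.36 and 7.72. dpy-13 was at 376 CPM in nfki-1 and 656 CPM in ikb-1 mutants at L4, against 0.0604 and 0.131 CPM and 0.107 and 0.05 CPM at L1 (11.92 ± 0.58 and 12.97 ± 0.60), and at 2949 CPM in WT at L4, against 0.0886 and 0.177 CPM at L1. dpy-14 went the other way, at 0.0427 and 0.101 CPM at L4, against 21.9 and 24.8 CPM in nfki-1 and 16.6 and 65.9 CPM in ikb-1 mutants at L1. Over the whole col family 149 of 157 genes were tested, 85 rose and 4 fell in nfki-1, 76 rose and 5 fell in ikb-1, and 91 rose and 3 fell in WT. The family took 4.74% of gene reads in nfki-1 and 5.38% in ikb-1 mutants at L4, against 0.0982% to 0.305% in the 4 L1 libraries. col-20 was at 2916 and 3329 CPM at L4 with 4 and 3 reads at L1, a ratio of 16.50 on the log2 scale in nfki-1 (95% counting interval 15.15 to 18.38) and 17.09 in ikb-1 mutants (15.54 to 19.37).

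Of 24 genes that cycle with the molts, 6 rose and 2 fell in each mutant, against 17 and 1 in WT, with medians of 2.41, 2.2 and 3.92. nas-37, a protease that opens the old cuticle, was at 40.9 and 40.7 CPM at L4, against 1.27 and 0.817 CPM in nfki-1 and 0.763 and 0.817 CPM in ikb-1 mutants at L1 (5.29 ± 1.03 and 5.68 ± 1.05). lrp-1, a lipoprotein receptor needed for molting, fell to 149 CPM in nfki-1 and 156 CPM in ikb-1 mutants at L4, against 1448 and 1329 CPM and 1455 and 1466 CPM at L1 (−3.22 ± 0.29 and −3.23 ± 0.29). The rise was uneven over settings: without single libraries 2 to 11 of the list rose in nfki-1 and 2 to 9 in ikb-1 mutants, the fewest without nfki-1(cer2)_L1 replicate 2 and without either ikb-1(cer9)_L1 library, and more without either WT_L1 library. DESeq2 called 14 and 13. Among 76 tested hedgehog-related genes, many of them made by the skin, 13 rose and 3 fell in nfki-1, 14 and 3 in ikb-1, and 27 and 3 in WT. The increases numbered 5 and 6 in nfki-1 mutants without nfki-1(cer2)_L1 replicates 1 and 2, and 6 and 7 in ikb-1 mutants without ikb-1(cer9)_L1 replicates 1 and 2. Of 35 cuticlins 3 rose and 3 fell in each mutant, against 6 and 2 in WT, with 1 and 1 in nfki-1 mutants without either nfki-1(cer2)_L1 library and 0 lower in ikb-1 mutants without any 1 of the mutant L1 libraries. In the mutants neither cuticlin share was above that of all tested genes.

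**Figure D3:**
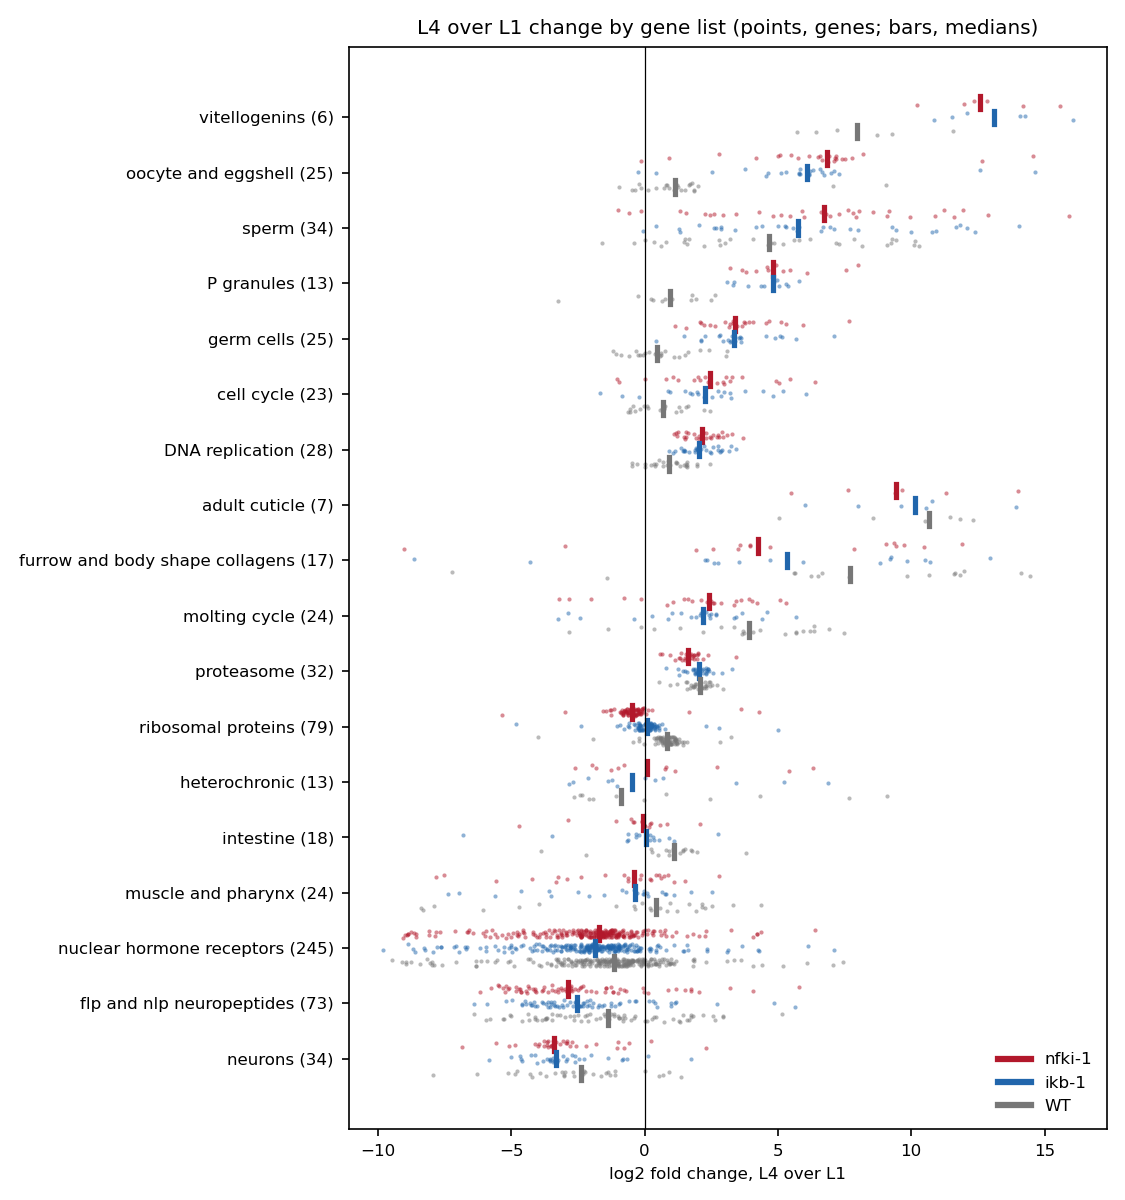
Log2 fold changes (L4 over L1) of the tested genes of selected lists, 1 point per gene, with nfki-1 mutants above ikb-1 mutants above WT and a bar at each median. Oocyte and eggshell genes have medians of 6.84 and 6.08 in the mutants and 1.16 in WT, and neuron genes of −3.38, −3.32 and −2.37.

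The heterochronic genes time larval fates, with lin-14 and lin-28 acting early and lin-29 late. lin-14 was at 25.9 CPM in nfki-1 mutants at L4, against 185 and 131 CPM at L1, and at 28.6 CPM in ikb-1 mutants at L4, against 279 and 127 CPM at L1. The L4 samples lay below every L1 library, but the L1 libraries were far apart and the changes missed the threshold (−2.61 ± 0.66, adjusted p = 0.020, and −2.83 ± 0.67, adjusted p = 0.016). lin-28, an RNA-binding protein, was at 35.2 and 30.2 CPM at L4, against 120 and 126 CPM in nfki-1 and 135 and 126 CPM in ikb-1 mutants at L1. It fell in ikb-1 mutants (−2.11 ± 0.24), and in nfki-1 mutants the value of −1.80 ± 0.24 was short of the required size. The transcription factor hbl-1 fell in ikb-1 mutants (−2.70 ± 0.35) with a value of −1.97 ± 0.33 in nfki-1 mutants.

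The late-acting lin-29 and its cofactor rose, as did a gene of the molts. lin-29 was at 10.3 and 12.3 CPM at L4, against 1.65 and 1.49 CPM in nfki-1 and 1.59 and 0.684 CPM in ikb-1 mutants at L1 (2.71 ± 0.56 and 3.43 ± 0.56). mab-10, a cofactor of lin-29, rose by 6.32 ± 0.93 and 6.86 ± 0.95, and lin-42, the period homolog that cycles with the molts, was at 50.8 and 65.8 CPM at L4, against 1.13 and 1.26 CPM and 1.54 and 1.98 CPM at L1. In all 3 rose and 0 fell of 13 in nfki-1 mutants, 3 and 2 in ikb-1 mutants, and 4 and 2 in WT. The ikb-1 increases were 1 without ikb-1(cer9)_L1 replicate 2, and 1 fell in nfki-1 mutants without ikb-1(cer9)_L1 replicate 1. lin-46, which acts downstream of lin-28, had values of −0.76 and −1.03 and did not pass. lin-41, which also acts in oocytes, was at 265 and 217 CPM at L4, against 120 and 122 CPM in nfki-1 and 217 and 112 CPM in ikb-1 mutants at L1, and at 29.96 CPM in WT at L4, against 180 and 127 CPM at L1. None of the 3 changes passed (1.14 ± 0.41, 0.40 ± 0.42 and −2.36 ± 0.48).

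Hox genes, which set identity along the body, gave 0 calls of 6 in every strain. The values ran over −2.21 for mab-5 to 0.90 for php-3 in nfki-1 mutants and over −1.69 to 1.12 for the same genes in ikb-1 mutants. Of 8 genes of PRC2, the complex that methylates histone H3 on lysine 27, and of the demethylases that remove the mark, 0 rose and 2 fell in each mutant, and in WT 3 fell. The 2 that fell in both mutants were jmjd-3.1 and jmjd-3.2, demethylases of that mark. jmjd-3.1 was at 22.9 and 23.5 CPM at L4, against 102 and 92.3 CPM in nfki-1 and 130 and 82.6 CPM in ikb-1 mutants at L1 (−2.08 ± 0.34 and −2.18 ± 0.35), and without any 1 L1 library at most 1 of them was called in nfki-1 mutants, while in ikb-1 mutants 0 were without ikb-1(cer9)_L1 replicate 1 and 1 without replicate 2. The methyltransferase mes-2 was at 50.97 and 43.8 CPM at L4, against 27.7 and 33.98 CPM in nfki-1 and 25.8 and 26.3 CPM in ikb-1 mutants at L1, and at 12.8 CPM in WT at L4, against 27.8 and 29.9 CPM at L1, with changes of 0.72 ± 0.22, 0.75 ± 0.22 and −1.17 ± 0.24 that did not pass.

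Genes of the nervous system were lower at L4. A larva is born with most of its neurons, and of 34 neuronal genes 26 fell and 1 rose in nfki-1 mutants, 28 fell in ikb-1 mutants and 20 fell in WT, with medians of −3.38, −3.32 and −2.37. They took 0.0872% of gene reads in nfki-1 and 0.0873% in ikb-1 mutants at L4, against 0.434% to 0.461% at L1. rgef-1, which is active in nearly all neurons, was at 4.29 CPM in nfki-1 mutants at L4, against 40.5 and 37.6 CPM at L1, and at 3.79 CPM in ikb-1 mutants at L4, against 42.7 and 31.3 CPM at L1 (−3.18 ± 0.31 and −3.29 ± 0.32). WT had 5.91 CPM at L4 and 36.9 and 37.8 CPM at L1 (−2.66 ± 0.30). egl-3, a neuropeptide convertase, was at 67.1 and 83.0 CPM at L4, against 783 and 697 CPM in nfki-1 and 720 and 664 CPM in ikb-1 mutants at L1. Genes that did not pass in nfki-1 mutants numbered 7, among them snb-1, a synaptic vesicle protein (0.23 ± 0.21 and 0.12 ± 0.21). The 1 that rose was tdc-1, the tyrosine decarboxylase that also works in the gonadal sheath, with 2.30 ± 0.37 in nfki-1 mutants, a call lost without any 1 of the 4 mutant L1 libraries, and 1.75 ± 0.37 in ikb-1 mutants.

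Neuropeptides of the flp and nlp families followed, with 49 of 73 lower and 3 higher in nfki-1, 46 and 3 in ikb-1, and 31 and 6 in WT. flp-1 was at 2.26 CPM in nfki-1 and 2.52 CPM in ikb-1 mutants at L4, against 166 and 161 CPM and 149 and 153 CPM at L1 (−6.18 ± 0.31 and −5.90 ± 0.30), and at 1.87 CPM in WT at L4, against 163 and 148 CPM at L1. nlp-40, which is made by the intestine, was at 137 CPM in both mutants at L4 and did not pass. Of 828 tested chemoreceptor genes 68 fell and 3 rose in nfki-1, 59 and 4 in ikb-1, and 38 and 4 in WT, which in the mutants is a smaller share of decreases than the 11.0% and 10.9% of all tested genes. Of 245 nuclear hormone receptors 52 fell and 4 rose in nfki-1, 60 and 1 in ikb-1, and 29 and 5 in WT. The chemoreceptor count fell to between 20 and 53 in nfki-1 and 17 and 48 in ikb-1 mutants when single L1 libraries were left out, and that of the receptors was as low as 28 and 24.

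Muscle genes did not move as a block. Of 24 muscle and pharynx genes 7 fell in nfki-1, 6 in ikb-1 and 6 in WT, where 4 rose. The pharyngeal myosins fell most: myo-2 was at 9.84 CPM in nfki-1 mutants at L4, against 1521 and 2134 CPM at L1, and at 20.9 CPM in ikb-1 mutants at L4, against 2821 and 2326 CPM at L1 (−7.54 ± 0.49 and −6.94 ± 0.48). WT had 9.79 CPM at L4 and 2073 and 2581 CPM at L1 (−7.89 ± 0.50). The body wall myosin unc-54 was at 2093 CPM in nfki-1 and 3067 CPM in ikb-1 mutants at L4, against 1607 and 1913 CPM and 4988 and 2523 CPM at L1, and did not pass (0.25 ± 0.42 and −0.29 ± 0.43). unc-22, the giant protein twitchin, fell (−3.24 ± 0.50 and −3.59 ± 0.52). The intestinal list of 18 genes gave 0 higher and 2 lower in nfki-1, 1 and 2 in ikb-1, and 1 and 2 in WT, and its master regulator elt-2 was at 27.6 and 27.5 CPM at L4, between the L1 libraries of each mutant, which were at 44.0 and 15.4 CPM and at 37.6 and 9.79 CPM. Of 19 genes of the somatic gonad and vulva 2 rose and 1 fell in each mutant, among them inx-8, a gap junction protein of the gonadal sheath (7.10 ± 1.06 and 8.37 ± 1.14). In both lists no share was far above that of all tested genes, which was 9.56% and 9.92% higher and 11.0% and 10.9% lower. Of the gonad and vulva genes, 1 rose in nfki-1 mutants without either nfki-1(cer2)_L1 library and 0 in ikb-1 mutants without either ikb-1(cer9)_L1 library. The decrease was lost in ikb-1 mutants without any 1 L1 library of any strain.

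Insulin-like peptides were more often lower than higher at L4. Of 37 tested 10 fell and 1 rose in each mutant, with 6 and 1 in WT, and the same 10 fell in both. Without either ikb-1(cer9)_L1 library 6 fell in ikb-1 mutants. ins-17 was at 7.60 and 9.08 CPM at L4, against 47.01 and 50.9 CPM in nfki-1 and 42.2 and 44.6 CPM in ikb-1 mutants at L1. Of 27 genes of fasting and lipid metabolism 2 rose and 1 fell in nfki-1, 3 and 2 in ikb-1, and 5 and 0 in WT, and without either WT_L1 library 5 fell in each mutant. In the mutants these main counts were near or below the shares of all tested genes. The desaturase fat-7 was at 13.9 and 24.9 CPM at L4, against 0.408 and 0.343 CPM in nfki-1 and 0.580 and 0.517 CPM in ikb-1 mutants at L1 (5.20 ± 0.55 and 5.50 ± 0.55). icl-1, of the glyoxylate cycle, fell in ikb-1 mutants (−3.64 ± 0.64) with a value of −2.57 ± 0.60 in nfki-1 mutants. Of 11 tested heat shock genes 0 were called in either mutant.

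Among genes that every cell uses, few ribosomal protein genes were called and more of the proteasome genes. Of 79 ribosomal protein genes 2 rose and 2 fell in nfki-1, 3 and 2 in ikb-1, and 2 and 1 in WT, and the medians were −0.46, 0.10 and 0.84. All 32 proteasome genes had positive values in each strain, and 5 were called in nfki-1, 17 in ikb-1 and 17 in WT, with medians of 1.65, 2.03 and 2.08. The proteasome counts ran from 2 to 9 in nfki-1 and from 9 to 22 in ikb-1 mutants without single L1 libraries, and with library totals the WT count was 2. Of 26 mitochondrial respiration genes 3 rose and 1 fell in nfki-1 and 3 rose in ikb-1 mutants, with increases near the share of all tested genes and decreases below it. Among them cyc-2.2, a cytochrome c gene, was at 27.2 and 29.4 CPM at L4, against 0.272 and 0.0163 CPM in nfki-1 and 0.0763 and 0.0167 CPM in ikb-1 mutants at L1. C-type lectins, a family often linked to immunity, gave 19 higher and 10 lower of 179 in nfki-1, 21 and 12 in ikb-1, and 20 and 11 in WT. In the mutants the lectin increases were near the 9.56% and 9.92% of all tested genes, and the decreases were below the 11.0% and 10.9%. Without nfki-1(cer2)_L1 replicate 1 the increases were 12 in nfki-1 and without ikb-1(cer9)_L1 replicate 1 they were 11 in ikb-1 mutants, and the decreases were as few as 5 and 4. F-box genes of the FBXA family gave 20 and 8 of 168 in nfki-1, 17 and 8 in ikb-1, and 13 and 9 in WT. In the mutants these F-box genes also rose at near the share of all tested genes and fell at less than it. Their increases fell to 5 in nfki-1 mutants without either nfki-1(cer2)_L1 library, and to 5 and 6 in ikb-1 mutants without ikb-1(cer9)_L1 replicates 1 and 2.

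The largest increases in both mutants mixed cuticle, yolk, egg and sperm genes with genes of no stated role: C08F11.11, col-20, Y62H9A.6, vit-2, rol-1, Y62H9A.5, col-178, ssq-2, nspd-2 and perm-4. C08F11.11 was at 301 CPM in nfki-1 and 278 CPM in ikb-1 mutants at L4 against 0 reads in all 4 L1 libraries, at least 12787-fold and 11619-fold higher with 3 counts over the L1 libraries as the floor. Y62H9A.6 and its neighbour Y62H9A.5 were at 235 and 133 CPM in nfki-1 mutants and at 228 and 127 CPM in ikb-1 mutants at L4, also with 0 reads at L1. rol-1, a collagen of body shape, was at 268 CPM in nfki-1 and 497 CPM in ikb-1 mutants at L4, with 2 reads and 0 reads at L1, and at 1391 CPM in WT at L4. In all, 31 genes called higher in both mutants had 0 reads in all 4 L1 libraries.

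The largest decreases were mostly non-coding RNAs: 3 snoRNAs, 4 genes annotated as ncRNA and 1 rRNA gene stood among the 10, with the protein-coding tag-293 and phat-5. rpr-1, the RNA of ribonuclease P, was at 0.171 CPM in nfki-1 and 0.0505 CPM in ikb-1 mutants at L4, against 645 and 695 CPM and 550 and 907 CPM at L1, and in WT at 0.0622 CPM at L4, against 371 and 872 CPM at L1. Of 226 tested snoRNA genes 54 were lower (23.9%) and 2 higher in both mutants, against 9.57% of all tested genes lower. Non-coding genes did not fall as a class: 66 of 2339 tested ncRNA genes were lower in both (2.82%), and 0 of 58 miRNA genes. Reads of rRNA took 0.00145% of gene reads in nfki-1 and 0.00116% in ikb-1 mutants at L4, against 4.56% to 6.498% at L1, and WT had 0.00131% at L4. The share of reads outside annotated genes was 5.78% to 8.40% at L4 and 14.3% to 16.18% at L1, and it moved with the stage along with the rRNA reads. Its part in these values was not tested. tag-293 had 0 reads in both mutants at L4, against 53.7 and 82.6 CPM in nfki-1 and 123 and 68.2 CPM in ikb-1 mutants at L1, at least 527-fold and 641-fold lower.

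Among protein-coding decreases, named after their values were seen, fmo-2, a flavin monooxygenase known to be induced by fasting, was at 0.214 CPM in nfki-1 and 0.177 CPM in ikb-1 mutants at L4, against 151 and 166 CPM and 138 and 324 CPM at L1 (−9.52 ± 1.22 and −10.33 ± 1.28). gcy-5, a guanylyl cyclase of a salt-sensing neuron, was at 0.192 CPM in nfki-1 mutants and 0 in ikb-1 mutants at L4, against 13.6 and 15.2 CPM and 10.3 and 31.1 CPM at L1. ace-4, an acetylcholinesterase gene, was at 0.0427 and 0 CPM at L4, against 9.58 and 12.63 CPM and 12.9 and 10.7 CPM at L1. In all, 110 genes called lower in both mutants had 0 reads in both L4 samples, and the smaller depth at L4 limits what could be seen there.

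The X chromosome differed from the autosomes. Germline genes are known to be rare on the X of C. elegans, where chromatin is silenced in most germ cells. Of 3272 tested X genes 145 were higher in both mutants (4.43%) and 432 lower (13.2%), against 1703 (9.67%) and 1557 (8.84%) of 17614 autosomal genes. The median change on X was −1.74 in nfki-1 and −1.71 in ikb-1 mutants, against −0.40 and −0.46 on the autosomes, and in WT −1.38 on X. X genes took 9.53% of gene reads in nfki-1 and 9.93% in ikb-1 mutants at L4, against 10.7% to 12.3% at L1, and in WT 11.7% at L4, against 11.2% and 12.4% at L1. Chromosome I had the largest share of genes higher in both (13.2%) and, of the autosomes, chromosome V the smallest (6.65%).

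**Figure D4:**
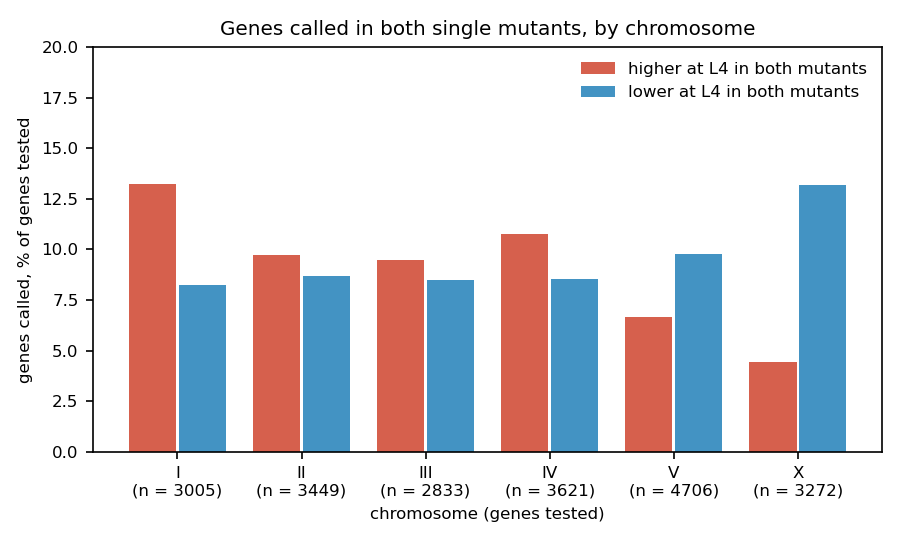
Percent of tested genes on each chromosome that were called higher or lower at L4 in both single mutants. Chromosome I has 13.2% higher and 8.25% lower genes, and X has 4.43% higher and 13.2% lower.

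Markers of other animals were low. Of 7 tested male genes 0 rose and 2 fell in each strain, and cwp-4, of male sensory neurons, was at 0.0854 and 0.151 CPM at L4, against 11.0 and 11.3 CPM in nfki-1 and 10.0 and 13.0 CPM in ikb-1 mutants at L1. Of 5 tested embryo genes 0 rose in any strain, and ceh-51 and end-1, which act in the early embryo, had 0 reads in both mutants and in WT at L4. end-3 had values of −1.54 and 0.18 and sdz-38 of 0.53 and −0.36, and neither passed. The list took 4.25e-05% of gene reads in nfki-1 and 6.84e-05% in ikb-1 mutants at L4, against 0.000202% to 0.000389% in the 4 L1 libraries, and 3.87e-05% in WT at L4. Of 11 dosage compensation genes 3 fell in each mutant and 6 in WT. The 1 that rose, in nfki-1 mutants, was xol-1, the switch that is high in male embryos, at 1.39 CPM at L4, against 0.106 and 0.114 CPM at L1 (3.63 ± 0.70), and the call was lost without any 1 L1 library of any strain. Of 12 synMuv B genes 1 rose in each mutant, against 3 lower in WT, and 0 rose in nfki-1 mutants without nfki-1(cer2)_L1 replicate 1 or in ikb-1 mutants without ikb-1(cer9)_L1 replicate 1.

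WT animals, labelled with the same stages, shared much of the change. The authors name an altered speed of larval development in the mutants as a possibility. Age within a stage was not tested here, and it cannot be told apart from genotype in any difference from WT. Of the 1868 genes higher in both mutants 877 were higher and 1 lower in WT, and of the 2034 lower in both 1418 were lower and 0 higher in WT. The difference between a mutant change and the WT change was then tested with an interaction contrast at an adjusted p below 0.05. In nfki-1 mutants it was positive in 900 genes (4.23%) and negative in 329 (1.55%), and in ikb-1 mutants in 667 (3.14%) and 126 (0.593%), which makes 5.78% and 3.73% of genes in either direction. An unadjusted p below 0.05 was reached by 2635 and 2639 genes in nfki-1 and by 2553 and 2169 in ikb-1 mutants. At the adjusted threshold 642 genes were positive and 109 negative in both mutants, and both tests share the WT samples, so the overlap is not independent. L1 libraries of the same number deviated together, and with the replicate block in these libraries the counts were 2190 and 2123 in nfki-1 and 2014 and 1584 in ikb-1 mutants, so that 50.8% and 56.0% of calls were positive, against 73.2% and 84.1% without the block. The counts rested on single libraries. They were 383 and 52 without WT_L1 replicate 1 and 390 and 55 without replicate 2 in nfki-1 mutants, where they were 101 and 8 without nfki-1(cer2)_L1 replicate 1 and 11 and 1 without replicate 2, and 56 and 4 without either ikb-1(cer9)_L1 library. In ikb-1 mutants they were 253 and 22 without WT_L1 replicate 1, 236 and 32 without replicate 2, 172 and 17 without either nfki-1(cer2)_L1 library and 0 and 0 without either ikb-1(cer9)_L1 library. With library totals in place of TMM the median of all genes moved to 0.34 in nfki-1 and 0.26 in ikb-1 mutants and the share of positive calls to 91.5% and 94.8%, against 73.2% and 84.1% with TMM.

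**Figure D5:**
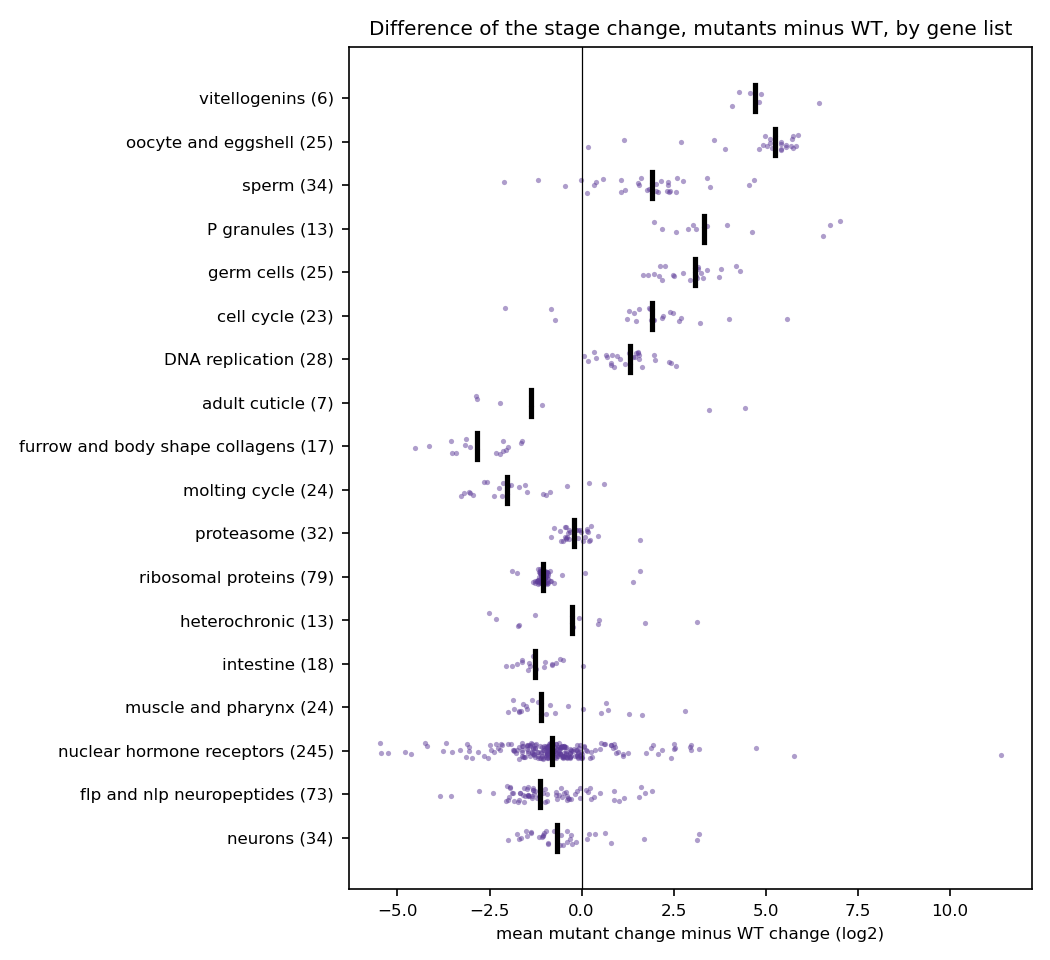
Difference of the L4 over L1 change, the mean of both mutants minus WT (log2), with 1 point per tested gene and a bar at the median of each list. All oocyte and eggshell, P granule and germ cell genes lie to the right of 0 and all furrow collagens to the left, where the molting median also lies.

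In nfki-1 mutants the lists of widest median difference from WT were those of oocytes, yolk, P granules, germ cells and furrow collagens. Of the oocyte and eggshell genes 22 of 25 had a larger change in nfki-1 mutants than in WT and 21 in ikb-1 mutants, with median differences of 5.50 and 5.03, and without single libraries the counts ran from 9 to 22 and from 0 to 21. Of the germ cell genes 19 and 15 did (medians 3.07 and 3.04, with 0 to 11 and 0 to 9 without single libraries), and of the P granule genes 11 and 8 (3.26 and 3.2), with 1 to 9 and 0 to 7 without single libraries. The lowest of these counts came without nfki-1(cer2)_L1 replicate 2 in nfki-1 and without either ikb-1(cer9)_L1 library in ikb-1 mutants. For puf-5 the difference was 5.88 for the mean of the mutants (adjusted p = 0.0078, edgeR), for glp-1 3.72 (adjusted p = 0.0095) and for vit-1 4.81 (adjusted p = 0.019). Of the 6 vitellogenins only 1 was called in each mutant against WT (median differences 4.39 and 4.84). That call was lost when at least 1 L1 library was left out. Furrow and body shape collagens had smaller changes in the mutants, with 3 of 17 called in nfki-1 and 0 in ikb-1 (medians −2.81 and −2.88), as had molting genes, with 2 and 1 of 24 (−2.07 and −1.97). Of 73 neuropeptides 14 had a more negative change in nfki-1 mutants than in WT and 4 in ikb-1 mutants, and without single libraries at most 1 and 0 did. The medians of the germline, furrow collagen and molting lists had the same sign with library totals and with RLE size factors in place of TMM, but with library totals 0 furrow collagens were called in either mutant, and without most single L1 libraries 0 were.

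A small heat shock protein and an insulin-like peptide were among the widest single differences. hsp-16.2, a small heat shock protein, was at 5.4 CPM in nfki-1 and 7.29 CPM in ikb-1 mutants at L4, against 35.3 and 11.5 CPM and 22.8 and 30.7 CPM at L1, and at 133 CPM in WT at L4, against 17.3 and 11.4 CPM at L1, a difference of −5.21 (adjusted p = 0.019). ins-35, an insulin-like peptide, was at 0.320 and 0.353 CPM in the mutants at L4, against 10.1 and 10.8 CPM and 11.1 and 6.44 CPM at L1, and at 12.1 CPM in WT at L4, against 7.99 and 8.03 CPM at L1 (difference −5.42, adjusted p = 0.0094). In both genes the mutant L4 samples were the lowest of all and the WT L4 sample was the highest, and in the test of each mutant against WT both calls were lost without either L1 library of that mutant.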

How the data were processed

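The deposited files hold raw HTSeq counts of reads per gene, made by the authors from trimmed reads aligned with Bowtie2 to WBcel235. The submitters' processing notes also name CASAVA 1.4, FastQC and DESeq2. The rows for unassigned reads stayed out of library sizes and tests; those outside genes were 5.78% to 8.40% of reads in mutant L4 libraries and 14.3% to 16.18% in mutant L1 libraries. Of 42048 gene IDs 41604 matched RefSeq for names, biotypes and chromosomes.

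The 2 files of each L4 strain were averaged into 1 sample. The 9 samples of nfki-1, ikb-1 and WT were fitted together in edgeR 4.0.16 (R 4.3.3) with TMM scaling, a minimum count of 10 in its expression filter and its quasi-likelihood test, and p-values were adjusted over 21258 genes (Benjamini-Hochberg). The 3 residual degrees of freedom come from the L1 pairs alone, so L4 is assumed to vary like L1. Stage changes were called where the adjusted p was under 0.01 and the log2 fold change reached 2 in size, and differences of changes where the adjusted p was under 0.05. The fit was tested on simulated data, where few changes set at the size threshold were called and many larger ones were missed.

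L1 libraries of the same number deviated together between strains (correlation of replicate differences 0.524 to 0.781 over 9221 genes), and so did L4 files (0.902 to 0.918), whereas L4 and L1 did not. Named genes were the 10 largest increases and decreases called in both mutants with at least 10 CPM in the higher stage, the 3 of smallest p between mutants, the 5 widest differences from WT each way among genes that passed with at least 10 CPM in a group, and, of each list, the most abundant member at each stage and those of largest and smallest change, with all members of the IκB, heterochronic, Hox, PRC2 and vitellogenin lists. Protein-coding decreases were added after values were seen. The members and lists were chosen with earlier results of these data known. Alternatives were DESeq2 1.42.0, RLE factors, library totals, other filters, thinned L1 counts, glmTreat, each L4 file as a replicate, a replicate block and leaving out each library. Tables and plots were made in Python 3.11.15 with pandas 2.3.3, matplotlib 3.10.9, scipy 1.17.1 and numpy 2.4.6. Whether counting used strand is not given in the sources used here, so overlapping genes and near-identical copies are uncertain. Counting intervals (95%) cover counting error alone. The double mutant libraries were not used here.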

Additional observations from a re-analysis of the deposited data

Results flagged for a closer look

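The L4 against L1 change differed from that in WT, by the edgeR interaction test at an adjusted p below 0.05, in 900 genes with a more positive and 329 with a more negative change in nfki-1 mutants, and in 667 and 126 genes in ikb-1 mutants. With the replicate block in the L1 libraries the counts were 2190 and 2123, and 2014 and 1584. Without nfki-1(cer2)_L1 replicate 2 they were 11 and 1 in nfki-1 mutants, and without either ikb-1(cer9)_L1 library 0 and 0 in ikb-1 mutants. The values below are the mean of both mutants minus WT on the log2 scale.

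Among the genes with a more positive change in the mutants, F55B11.3 differed by 8.86 (adjusted p = 0.049), with 35.9 CPM in nfki-1 and 34.6 CPM in ikb-1 mutants at L4 and 1.18 CPM in WT. The collagen col-95 differed by 7.30 (adjusted p = 0.015), with 22.3, 22.1 and 0.218 CPM, and R04D3.3 by 7.21 (adjusted p = 0.022), with 51.8, 54.7 and 0.373 CPM. T24E12.10 differed by 8.36 (adjusted p = 0.015) and zip-8 by 7.75 (adjusted p = 0.040), both genes with lower values at L4 than at L1 in every strain, but in WT at L4 each had 0 reads, so the fitted value depends on the prior count and is no bound. vit-1 differed by 4.81 (adjusted p = 0.019) and lin-41 by 3.13 (adjusted p = 0.027). In the test of each mutant against WT, vit-1 did not pass in at least 1 of the fits that left out 1 L1 library. lin-41 did not pass in any of them.

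Among the genes with a more negative change, F49C5.11 differed by −6.87 (adjusted p = 0.032), with 0.342 and 1.51 CPM in nfki-1 and ikb-1 mutants at L4 and 17.9 CPM in WT. ins-35 differed by −5.42 (adjusted p = 0.0094), hsp-16.2 by −5.21 (adjusted p = 0.019) and lin-42 by −2.34 (adjusted p = 0.014). For lin-42, the test of each mutant against WT did not pass in any fit that left out a single L1 library. The collagens col-41 and col-176 differed by −5.25 (adjusted p = 0.0078) and −5.04 (adjusted p = 0.014), with 8.69 and 14.3 CPM against 310.4 CPM in WT for col-41 and 4.25 and 9.29 CPM against 268 CPM for col-176.

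Of the chromatin genes, mes-2 differed by 1.91 (adjusted p = 0.019), mes-3 by 1.78 (adjusted p = 0.023) and the demethylase jmjd-1.2 by 2.15 (adjusted p = 0.017). For each, the stage change itself did not pass in either mutant, and in the test of each mutant against WT the difference was lost without any 1 L1 library of any strain.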

How the results depend on the processing

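No call changed sign under any alternative among the 251 stage calls of named genes, and 57 were lost without at least 1 library of their own strain. Differences from WT were less firm: of 43 named calls in nfki-1 mutants 31 were lost without nfki-1(cer2)_L1 replicate 1, 39 without replicate 2, and 16 and 13 without WT_L1 replicates 1 and 2, and of 37 in ikb-1 mutants all 37 were lost without either ikb-1(cer9)_L1 library and 15 and 14 without the WT_L1 libraries. With at least 10 counts in every library, nfki-1 mutants had 1110 increases and 1392 decreases and ikb-1 mutants 1197 and 1390. In that setting the nfki-1 difference from WT was negative in 728 genes, and the ikb-1 difference was positive in 1029 and negative in 333. With each L4 file as a replicate 4240 genes were lower in each mutant, the differences from WT were 3392 and 3621 in nfki-1 and 3284 and 3250 in ikb-1, and that between mutants 3 and 3. Adding the replicate block to that fit gave 4603 and 4562 lower genes, 3679 and 4149, 3540 and 3812, and 3 and 2. The replicate block in the L1 libraries alone gave differences from WT of 2190 and 2123 in nfki-1 and 2014 and 1584 in ikb-1 mutants, and moved no stage count by over 1.5 times. DESeq2 gave 1767 and 1311, 1549 and 889, and 1 and 2 between mutants. Library totals gave 1381 and 128, and 1102 and 61, and no filter gave 228 negative ikb-1 differences. An adjusted p below 0.01 gave 11 and 0 in nfki-1 and 0 and 0 in ikb-1 mutants. The share of positive differences among calls was 73.2% in nfki-1 and 84.1% in ikb-1 mutants. It was 57.4% and 63.5% with DESeq2 and 50.8% and 56.0% with the block. With each L4 file as a replicate it was 48.4% and 50.3%, and with at least 10 counts 62.2% in nfki-1 mutants. The causes were not tested.

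Without single libraries of the strains compared the nfki-1 stage counts ran from 1265 to 2012 higher and 1493 to 2451 lower, the ikb-1 counts from 1011 to 2078 and 1320 to 2442, the nfki-1 differences from WT from 11 to 995 and 1 to 419, the ikb-1 differences from 0 to 782 and 0 to 181, and those between mutants were 0 throughout. Without L1 libraries of other strains the increases reached 2197 in nfki-1 and 2270 in ikb-1 mutants. Across genes, r between mutants was 0.973 and rho 0.966 with at least 10 counts, and on the log2(CPM + 1) scale 0.980 and 0.961. With 1 L1 library each, r was 0.9503 and 0.958 and rho 0.915 and 0.922 for unlike numbers, and r 0.970 and 0.973 for like numbers. With n = 1 at L4, and L4 depth below that at L1, low genes and differences from WT are the least certain.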
